A study of Mus musculus with 4 samples.

Results

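The retinoic acid genes followed here were 9 genes that make, bind, sense or remove retinoic acid, namely *Aldh1a1*, *Aldh1a2*, *Aldh1a3*, *Dhrs3*, *Crabp1*, *Crabp2*, *Rarb*, *Cyp26a1* and *Cyp26b1*. They were taken by gene name from 29924 gene names on the arrays, where they had 11 of 39429 probes. Of the 9 genes, 8 were measured well above background and entered the tests, against 20231 genes in all. *Cyp26a1* did not.

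Retinol is oxidised to retinaldehyde and then, by the enzymes of the ALDH1A family, to retinoic acid. DHRS3 runs the first step backwards, from retinaldehyde to retinol. Retinoic acid is carried in the cytoplasm by CRABP1 and CRABP2, enters the nucleus and binds receptors such as RARB, which sit with RXR partners on retinoic acid response elements and switch on nearby genes. CYP26A1 and CYP26B1 oxidise retinoic acid and so end the signal. In the developing urinary tract, retinoic acid made in the mesenchyme acts on the epithelium, and *Aldh1a2* is used as a marker of the lamina propria, the connective tissue layer under the urothelium.

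The samples were 8 RNA pools from ureters of NMRI mice that had been dissected on the day of birth (P0) and then kept in culture for 8 d. Control ureters carried the genotype Pparg (fl/?), without cre, and mutant ureters (*Pparg-cKO*) carried Pax2-cre/+; Pparg (fl/fl). Each genotype was cultured with DMSO (1:1000), or with 2 µM purmorphamine, an agonist that switches on the SHH (sonic hedgehog) pathway by acting on Smoothened. There was 1 male and 1 female pool for each of the 4 combinations, and the treated and the untreated pool of the same sex and genotype were labelled with different dyes and put on one array. Pax2-cre acts in the epithelium derived from the nephric duct, so the mesenchyme of the mutant ureters still held a functional *Pparg*. RNA came from whole ureters, in which fewer cells of a type and less RNA per cell cannot be told apart. Sex, replicate number and dye orientation were the same division of the samples and cannot be told apart either, so the male and the female difference are given beside the fits that the results rest on.

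Between 66.3% and 70.5% of spots stood well above background in each channel. Smooth muscle and urothelium markers, which define the tissue, were all measured (6 of 6 and 8 of 8 genes). All 5 genes of the SHH pathway list were fitted higher with purmorphamine, with differences of 0.15 to 1.33 in controls (1 gene called) and of 0.95 to 2.19 in *Pparg-cKO* ureters (3 genes called). A gene was called when limma's adjusted p, taken over all 27066 probes tested, was under 0.05. Levels below are log2 normalized intensities of one probe, so that 1 unit is a 2-fold difference, and they compare pools with each other and not genes with each other. The probe for *Pparg* was not used to check the genotype. The paper reports a stable mutant mRNA without the deleted exons, and where the probe lies in the transcript was not examined.

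The promoters of the 2 genes best known as direct targets of retinoic acid are shown because they hold the element through which the receptors act. A retinoic acid response element was searched as a direct repeat of 6-base sites with 5 bases between them, where each site was AGGTCA, the general site of these receptors, or one of its close variants, namely AGTTCA as found in known elements, likewise GGGTCA and finally GGTTCA, on both strands, from 250 bases before to 50 bases after each start in RefSeq (GRCm38.p6). It was found in 32 of 32851 promoters (0.0974%). Of the 9 genes, 7 had a promoter in that table, and 2 of these, *Rarb* and *Cyp26a1*, held the element. Because sites of known elements were searched, this count is no test against the share of all promoters. The 100 bases before the start of each are printed 5′ to 3′ on the strand of the gene, with the repeated sites in capitals.
Rarb, chr14:16575477-16575576, minus strand: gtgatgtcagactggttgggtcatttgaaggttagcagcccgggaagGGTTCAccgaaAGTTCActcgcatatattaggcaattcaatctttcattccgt
Cyp26a1, chr19:37697708-37697807, plus strand: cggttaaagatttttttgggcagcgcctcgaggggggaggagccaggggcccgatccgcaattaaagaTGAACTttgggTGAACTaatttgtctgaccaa
In *Rarb* the element reads in the direction of the gene and ends 36 bases before the start, and in *Cyp26a1* it reads on the opposite strand and ends 15 bases before the start. These are matches of letters and say nothing about binding in these explants. *Rarb* was well above background in all 8 pools with 2 of its 3 probes, and *Cyp26a1* in none.

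**Figure D1:**
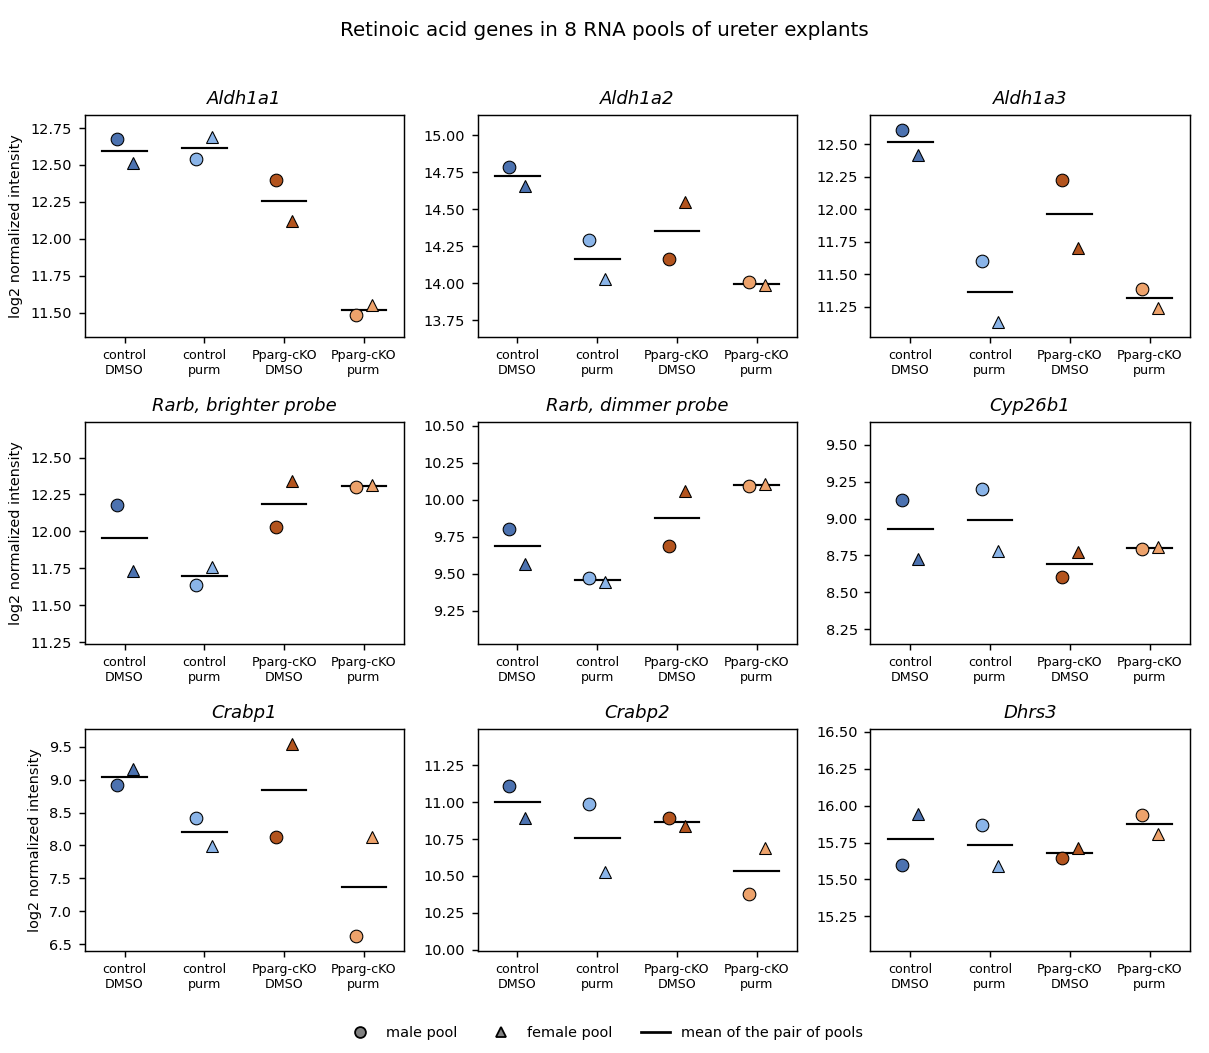
Log2 normalized intensity (y axis, a separate scale for each panel) of the 9 probes of 8 retinoic acid genes that were well above background, in the 4 combinations of genotype and treatment (x axis). Circles are male pools, triangles female pools and lines their mean; Aldh1a1 was lowest in the Pparg-cKO pools with purmorphamine (11.49 and 11.55), and Crabp1 was spread most widely, from 6.62 to 9.55.

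Among the enzymes that make retinoic acid, *Aldh1a1* was lower in *Pparg-cKO* ureters, and this difference was called with purmorphamine but not with DMSO. Its probe (mm9, chr19:20717764-20717823) gave 12.68 in the male and 12.51 in the female control pool with DMSO. With purmorphamine the control pools gave 12.54 and 12.69. The control pools were therefore mixed in order, and the fitted effect of purmorphamine in them was 0.020 (SE 0.14, 95% interval -0.34 to 0.38). The *Pparg-cKO* pools gave 12.40 and 12.12 with DMSO, below all 4 control pools. With purmorphamine they gave 11.49 and 11.55, the lowest values of the 8 pools. With purmorphamine the *Pparg-cKO* level of *Aldh1a1* was thus 2.14-fold below the control level, a log2 difference of -1.10 (SE 0.13, adjusted p = 0.0142 in limma), with -1.06 in males and -1.14 in females. With DMSO the difference was -0.34 (SE 0.13, adjusted p = 0.275), with -0.28 in males and -0.39 in females, and the groups did not overlap.

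Within the mutant ureters *Aldh1a1* was 1.67-fold lower with purmorphamine than with DMSO (log2 difference -0.74, SE 0.14, adjusted p = 0.0597), by -0.91 in males and -0.57 in females. The mutant and the control response to purmorphamine differed by -0.76 (SE 0.20, adjusted p = 1.00), so that a difference between genotypes in this response was not called. The call with purmorphamine was lost when either control array or the male *Pparg-cKO* array was left out, with log2 differences of -1.16 without the control males (adjusted p = 0.116), of -1.03 without the control females (0.157) and of -1.07 without the *Pparg-cKO* males (0.105). Fat markers were lower in *Pparg-cKO* pools as well. The summed normalized intensity of 4 measured fat markers, of 5 listed, was 160863 to 207897 in control pools with DMSO, 142377 to 172784 in control pools with purmorphamine, 69462 to 86775 in *Pparg-cKO* pools with DMSO and 18128 to 97947 in *Pparg-cKO* pools with purmorphamine. Between the genotypes 0 of these 4 genes were called, although 1 with DMSO and 3 with purmorphamine were lower at an unadjusted p under 0.05. Of all genes, 15.8% and 15.6% lay under that limit. Within the mutant ureters the fitted differences of these 4 genes with purmorphamine lay between -1.25 and -0.78 with 0 called, negative in the male pools and positive in the female pools. The mesothelium list gave no common direction with DMSO. Of its 4 measured markers, of 6 listed, *Upk3b*, which the urothelium also expresses, was called lower in *Pparg-cKO* ureters (-1.83 with DMSO and -1.07 with purmorphamine), while the other 3, *Wt1* among them (0.56), were fitted higher with DMSO and lower with purmorphamine, and *Lrrn4* was not above background in any pool. The list summed to 7442 to 8961 and 9983 to 13157 in control pools with DMSO and purmorphamine, and to 3885 to 4371 and 4983 to 6366 in *Pparg-cKO* pools. In control pools *Upk3b* weighed most in this sum, with a mean level of 12.70 with DMSO against 10.25 for *Wt1*, so the sum does not track mesothelium alone. The part of these cells in the *Aldh1a1* result was not tested.

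*Aldh1a7*, a close relative of *Aldh1a1* that lies beside it on chromosome 19, is shown with it because the 2 mRNAs resemble each other. The probes lie 49729 bases apart in mm9. At their best ungapped match, 18 of 26 bases are identical, and the 8 that differ are in capitals.
Aldh1a1, bases 35 to 60 of the probe: CtccttgaaGtaCTCaccaCAcatAa
Aldh1a7, bases 1 to 26 of the probe: TtccttgaaCtaTGTaccaTGcatGa
*Aldh1a7* gave 13.87 and 13.75 in the control pools with DMSO and 13.33 and 13.79 in those with purmorphamine. The *Pparg-cKO* pools gave 11.68 and 12.18 with DMSO and 11.22 and 11.90 with purmorphamine, so that no mutant pool reached a control pool. *Aldh1a7* was 3.69-fold lower in *Pparg-cKO* ureters with DMSO (log2 difference -1.88, SE 0.27, adjusted p = 0.0165), with -2.19 in males and -1.57 in females, and lower also with purmorphamine (-2.00, SE 0.27, adjusted p = 0.0195), with -2.11 and -1.89. How far *Aldh1a7* mRNA binds the probe of *Aldh1a1* was not tested.

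*Aldh1a2*, the main enzyme of retinoic acid synthesis in the embryonic mesenchyme, was lower with purmorphamine in both genotypes, but no difference was called. Its probe (chr9:71143931-71143990) gave 14.79 and 14.66 in control pools with DMSO against 14.29 and 14.03 with purmorphamine. In *Pparg-cKO* ureters it gave 14.16 and 14.55 with DMSO against 14.01 and 13.99 with purmorphamine. The purmorphamine pools lay below the DMSO pools in each genotype, and in the control the male and the female difference were close (-0.49 and -0.63), while in *Pparg-cKO* ureters they were further apart (-0.15 and -0.56). With DMSO, *Aldh1a2* was below the control in *Pparg-cKO* ureters by -0.37 (SE 0.15, adjusted p = 0.334), mostly from the males (-0.63, against -0.11 in females). With purmorphamine that difference was -0.17 (SE 0.15, adjusted p = 0.699). The 6 markers of the lamina propria and mesenchyme list, which does not hold *Aldh1a2*, were fitted higher with purmorphamine in 6 of 6 cases in either genotype. In controls 0 were called (4 at an unadjusted p under 0.05, against 19.6% of all genes), and 2 were called in *Pparg-cKO* ureters. Their summed intensity was 193515 to 254959 and 295180 to 327326 in control pools with DMSO and purmorphamine, and 215547 to 238583 and 319362 to 326413 in *Pparg-cKO* pools. The list covers mesenchyme as well as lamina propria, and the level of *Aldh1a2* per lamina propria cell was not tested.

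*Aldh1a3*, the third enzyme of the family, fell with purmorphamine in control ureters. Its probe (chr7:73535785-73535844) gave 12.61 and 12.42 in the control pools with DMSO against 11.60 and 11.13 with purmorphamine. This was a 2.22-fold lower level (log2 difference -1.15, SE 0.14, adjusted p = 0.0473), with -1.01 in males and -1.29 in females. In *Pparg-cKO* ureters it gave 12.23 and 11.70 with DMSO against 11.39 and 11.24 with purmorphamine, a difference of -0.65 (SE 0.14, adjusted p = 0.0791), with -0.84 in males and -0.47 in females. All 4 purmorphamine pools lay below all 4 DMSO pools. The responses of the 2 genotypes differed by 0.50 (SE 0.20, adjusted p = 1.00), which was not called.

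With DMSO, *Aldh1a3* was below the control in *Pparg-cKO* ureters by -0.55 (SE 0.22, adjusted p = 0.296), and with purmorphamine the pools of the genotypes overlapped (log2 difference -0.053, SE 0.22, adjusted p = 0.949). The call in control ureters stood close to the threshold. It was lost with the scanner's processed signals (-1.12, adjusted p = 0.0861), with median centring in place of loess (-0.95, 0.0521), without the filter on dim probes (-1.15, 0.0944), with the value table of the series (-1.13, 0.155), without the control males (-1.29, 0.132) and without the control females (-1.01, 0.123). The direction was kept in all of these. The 8 urothelium markers summed to 307369 to 345043 in control pools with DMSO and 407227 to 451313 with purmorphamine, and to 255853 to 294643 and 302447 to 317101 in *Pparg-cKO* pools. In the control comparison 1 of these 8 genes was called, and it was lower. At an unadjusted p under 0.05 in limma, 4 of the 8 were higher and 1 was lower, against 19.6% of all genes in either direction. Of the 5 measured leukocyte markers, of 6 listed, 4 were fitted lower with purmorphamine in each genotype, as *Aldh1a3* was. *Cd3e* was fitted higher in both. The 5 markers summed to 98438 to 119079 in control pools with DMSO and 57786 to 83606 with purmorphamine. In *Pparg-cKO* pools they summed to 103405 to 114802 and 69893 to 77761. Of these markers 0 were called in controls and 1 was called lower in *Pparg-cKO* ureters. At an unadjusted p under 0.05, 4 of 5 were lower in each, against 19.6% and 22.2% of all genes in either direction. The part of leukocytes in the *Aldh1a3* result was not tested.

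*Dhrs3*, which reduces retinaldehyde and so draws it away from retinoic acid, differed little between the pools. Its probe (chr4:144517485-144517544) ranged from 15.59 to 15.94 over the 8 pools, and the pools of control ureters with DMSO (15.60 and 15.94) covered nearly this whole range. The fitted differences ran from -0.092 to 0.19 in the 4 comparisons, with SE of 0.15 to 0.18, and none was called. The 95% intervals allowed differences of at most 0.50 between the genotypes with purmorphamine and 0.64 between treatments in *Pparg-cKO* ureters.

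**Figure D2:**
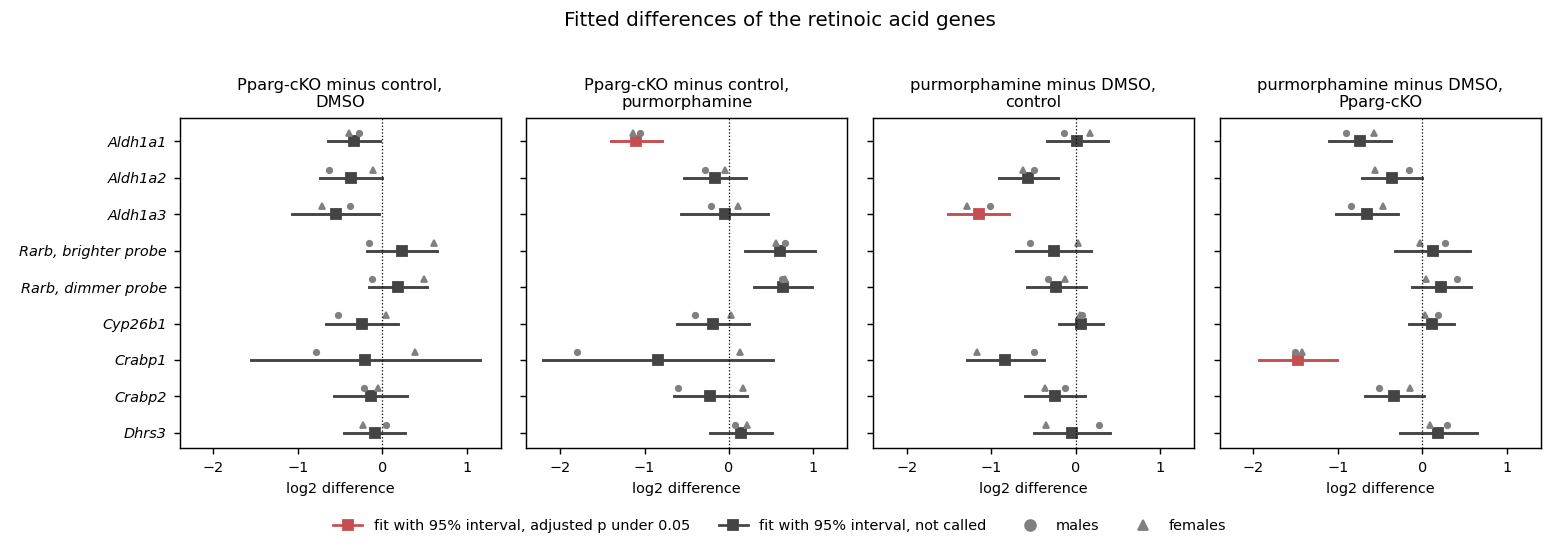
Fitted log2 differences (x axis) of the same 9 probes in the 4 comparisons, with 95% intervals as bars and the male and female difference as small circles and triangles. Red marks the 3 differences that were called, namely Aldh1a1 between genotypes with purmorphamine (-1.10), Aldh1a3 with purmorphamine in control ureters (-1.15) and Crabp1 with purmorphamine in Pparg-cKO ureters (-1.47).

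Of the binding proteins, *Crabp1* fell with purmorphamine in *Pparg-cKO* ureters, and its pools varied more than those of the other genes. CRABP1 holds retinoic acid in the cytoplasm and is linked to its breakdown. Its probe (chr9:54616192-54616251) gave 8.92 and 9.16 in control pools with DMSO and 8.42 and 8.00 with purmorphamine, a log2 difference of -0.83 (SE 0.18, adjusted p = 0.114). In *Pparg-cKO* ureters the male pools gave 8.14 with DMSO and 6.62 with purmorphamine, and the female pools 9.55 and 8.12. The female pools thus lay above the male pools with either treatment, but the difference within each array was nearly the same (-1.51 in males and -1.43 in females). The fit gave a 2.77-fold lower level with purmorphamine (log2 difference -1.47, SE 0.18, adjusted p = 0.0274).

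The 2 genotypes differed in this response by -0.64 (SE 0.25, adjusted p = 1.00), which was not called. Between the genotypes the differences of *Crabp1* were -0.20 with DMSO (SE 0.57, adjusted p = 0.933) and -0.84 with purmorphamine (SE 0.57, adjusted p = 0.570), and the pools overlapped in both. Without the female *Pparg-cKO* array the difference with purmorphamine was -1.59 and was called (adjusted p = 0.0498), and without the male *Pparg-cKO* array it was -0.086 (adjusted p = 0.985). Without the female *Pparg-cKO* array the response of the mutant ureters was no longer called (-1.51, adjusted p = 0.0868). That response was also not called without the filter on dim probes (adjusted p = 0.0657) or with the value table of the series, where it was -2.08 (adjusted p = 0.159). The male *Pparg-cKO* pool with purmorphamine was the dimmest of the 8 and lay at the floor of 15 after the scaling of the methods, so a difference against it depends on how background is handled. The 5 markers of the nerve and glia list, in which *Crabp1* is not included, summed to 5700 to 10306 in control pools with DMSO, 9304 to 9718 with purmorphamine, 6721 to 7844 in *Pparg-cKO* pools with DMSO and 8898 to 12961 with purmorphamine. In the mutant response 0 of 5 were called (2 at an unadjusted p under 0.05, both higher, against 22.2% of all genes in either direction). Other lists held genes called lower in that response, as *Crabp1* was. These were 2 of 5 kidney tubule markers, whose sum went from 1073 to 1227 with DMSO to 521 to 535 with purmorphamine. Also called lower were 2 of 4 mesothelium markers, with *Upk3b* called higher, and 1 of 5 leukocyte markers. Of 8 urothelium markers 1 was called lower and 3 higher. Of all genes, 4.66% were called in that response in either direction. The part of these cells in the *Crabp1* result was not tested.

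*Crabp2*, which hands retinoic acid to the receptors in the nucleus, showed no called difference. Its probe (chr3:87757207-87757266) gave 11.11 and 10.89 in control pools with DMSO, 10.98 and 10.52 with purmorphamine, 10.89 and 10.84 in *Pparg-cKO* pools with DMSO and 10.38 and 10.69 with purmorphamine. Purmorphamine pools lay below DMSO pools in *Pparg-cKO* ureters (-0.33, SE 0.14, adjusted p = 0.263) and overlapped with them in controls (-0.25, SE 0.14, adjusted p = 0.423).

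*Rarb*, the receptor whose own promoter holds the element printed above, was higher in *Pparg-cKO* ureters with purmorphamine with both detected probes, without reaching a call. The brighter probe (chr14:17263367-17263426) gave 11.64 and 11.76 in control pools with purmorphamine against 12.30 and 12.32 in *Pparg-cKO* pools. That was a log2 difference of 0.61 (SE 0.17, adjusted p = 0.146), with 0.66 in males and 0.56 in females. The dimmer probe (chr14:17264648-17264707) gave 9.47 and 9.45 against 10.10 and 10.11, a difference of 0.64 (SE 0.15, adjusted p = 0.0810), with 0.62 in males and 0.66 in females. The groups did not overlap with either probe. Both are designed on the beta3 transcript variant, and the third probe (chr14:17651424-17651483), on the beta1 variant, was not well above background in any pool, with levels of 6.08 to 6.24. Whether the measured transcripts start at the promoter printed above was not tested. Endothelium markers were also higher in *Pparg-cKO* pools with purmorphamine. Their summed intensity over 5 genes was 20224 to 21639 in control and 28386 to 32636 in *Pparg-cKO* pools with purmorphamine. Between them 0 of 5 were called (4 at an unadjusted p under 0.05, against 15.6% of all genes), and the part of these cells in the *Rarb* values was not tested. With DMSO the sums were 7855 to 11964 and 14266 to 15236. There 4 of the 5 were fitted higher and 1, *Tek*, lower (-0.055). One gene, fitted higher, was called with DMSO (1 of 5, against 3.69% of all genes). In control ureters both *Rarb* probes were fitted lower with purmorphamine (-0.26 and -0.23), and neither fit was called.

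With DMSO the genotypes overlapped. The brighter *Rarb* probe gave 12.18 and 11.73 in control and 12.03 and 12.34 in *Pparg-cKO* pools, so that the difference was -0.15 in males and 0.61 in females (fit 0.23, SE 0.17, adjusted p = 0.652). The dimmer probe gave 0.19 (SE 0.15, adjusted p = 0.660). In response to purmorphamine the brighter probe moved by -0.54 in male and 0.028 in female control ureters, and by 0.27 and -0.026 in *Pparg-cKO* ureters, and neither fit was called (adjusted p = 0.511 and 0.782).

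Of the enzymes that degrade retinoic acid, *Cyp26a1* (chr19:37775566-37775625) was not well above background in any of the 8 pools, where its normalized intensity lay between 6.06 and 6.23, and no fold change is given. *Cyp26b1* (chr6:84521952-84522011) was detected in all 8. It gave 9.13 and 8.73 in control pools with DMSO, 9.20 and 8.78 with purmorphamine, 8.61 and 8.77 in *Pparg-cKO* pools with DMSO and 8.80 and 8.81 with purmorphamine. The 2 male control pools were the highest and the other 6 lay between 8.61 and 8.81. Purmorphamine moved it by 0.063 in controls (SE 0.10, 95% interval -0.20 to 0.33) and by 0.11 in *Pparg-cKO* ureters (SE 0.10, 95% interval -0.15 to 0.38). The difference between the genotypes was -0.24 with DMSO and -0.19 with purmorphamine (SE 0.18 for both), and none of the 4 was called.

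Counted over the genes, limma called 0 of the 8 measured members between the genotypes with DMSO, where it called 3.69% of all genes. At an unadjusted p under 0.05 there were 2, *Aldh1a1* and *Aldh1a3*, both lower, where 15.8% of all genes lay under that limit, and the fit on processed signals scaled to the 75th percentile also called 0. Between the genotypes with purmorphamine 1 of 8 was called, against 2.89% of all genes. In response to purmorphamine it was 1 of 8 in control ureters, against 1.2%, and 1 of 8 in *Pparg-cKO* ureters, against 4.66%. With 8 genes, 1 call is the smallest count above 0. The difference between the responses was called for 0 members and 0% of all genes, with *Aldh1a1* at an unadjusted p under 0.05, where 3.32% of all genes lay under that limit.

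The median fitted difference of the 8 members was -0.22 and -0.18 between genotypes with DMSO and purmorphamine, and -0.25 and -0.34 for purmorphamine in control and *Pparg-cKO* ureters, while the medians over all genes were 0.0042, -0.0042, 0.015 and -0.0024. Negative differences were found for 7, 6, 6 and 5 of the 8 genes. These comparisons share pools, so the counts are not independent of each other.

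The rule of the methods asks for a change of 1.5-fold or more in both sexes at a scaled intensity over 100, without a test. It took 0 of 8 members that passed its intensity limit between genotypes with DMSO, against 5.5% of all genes that passed it. Between genotypes with purmorphamine it took 2 of 7 (*Rarb* higher and *Aldh1a1* lower), against 6.28%. For purmorphamine in control ureters it took 2 of 8 (*Aldh1a3* and *Crabp1*, both lower), against 6.45%, and in *Pparg-cKO* ureters 1 of 7 (*Aldh1a1*, lower), against 8.67%. *Crabp1* was left out of the last count because its male pools fell under the intensity limit, at 83.5 with DMSO and 15 with purmorphamine.

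The wider retinoid list held 46 names, of which 45 were on the arrays and 36 were tested. They covered 8 genes of uptake, transport and storage, 12 retinol and retinaldehyde oxidoreductases, 2 aldehyde dehydrogenases, 6 receptors and carriers, 8 genes known to respond to retinoic acid and no further degrading enzyme. Between the genotypes with DMSO 1 was called higher and 2 lower (8.33% of the 36, against 3.69% of all genes), and with purmorphamine 1 higher and 1 lower (5.56%, against 2.89%). Purmorphamine gave 0 calls in control ureters, where 1.2% of all genes were called, and 2, both higher, in *Pparg-cKO* ureters (5.56%, against 4.66%). At an unadjusted p under 0.05, 4 of the 36 lay above and 3 below 0 in control ureters, where 19.6% of all genes lay under that limit. The medians of the 36 were -0.035, -0.031, 0.038 and 0.042. The calls fell on transport and storage genes, on *Aldh1a7* and on a response gene, and none of the 12 oxidoreductases or 6 receptors and carriers was called in any of the 4 comparisons.

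**Figure D3:**
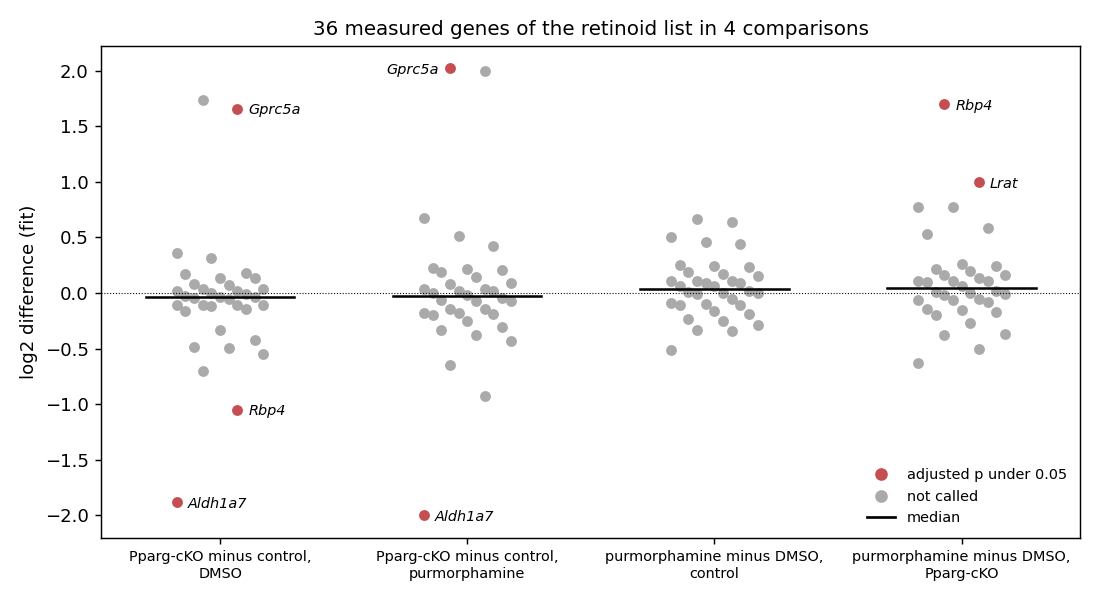
Fitted log2 differences (y axis) of the 36 tested genes of the retinoid list in the 4 comparisons (x axis), 1 point a gene, with the median as a line. Named red points were called; the lowest is Aldh1a7 (-2.00) and the highest Gprc5a (2.02), both between genotypes with purmorphamine, and the medians run from -0.035 to 0.042.

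*Rbp4* encodes the retinol binding protein that carries retinol outside cells. It gave 14.95 and 15.12 in control pools with DMSO and 13.91 and 14.05 in *Pparg-cKO* pools, a 2.07-fold lower level (log2 difference -1.05, SE 0.11, adjusted p = 0.00641), with -1.04 in males and -1.06 in females. With purmorphamine it gave 15.61 and 15.46 in control and 15.64 and 15.72 in *Pparg-cKO* pools, and the genotypes no longer differed by a called amount (0.15, SE 0.11, adjusted p = 0.618). The rise with purmorphamine in *Pparg-cKO* ureters was 3.24-fold (log2 difference 1.70, SE 0.12, adjusted p = 0.0144), with 1.73 in males and 1.66 in females, against 0.50 in controls (SE 0.12, adjusted p = 0.135). The mutant pools with DMSO enter both the genotype and the treatment difference. The responses differed by a 2.29-fold factor (SE 0.17 on the log2 scale), which was not called (adjusted p = 0.983).

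*Stra6*, the receptor through which cells take up retinol from RBP4, gave 9.38 and 8.10 in control pools with DMSO and 10.87 and 10.08 in *Pparg-cKO* pools. Male pools were higher than female pools in every combination, and the genotype difference was 1.49 in males and 1.98 in females (fit 1.73, SE 0.54, adjusted p = 0.179). With purmorphamine it was 2.00 (SE 0.54, adjusted p = 0.126). *Lrat*, which turns retinol into its storage esters and is named here because it was called, rose 1.99-fold with purmorphamine in *Pparg-cKO* ureters, from 7.16 and 7.22 to 8.14 and 8.22 (log2 difference 0.99, SE 0.10, adjusted p = 0.0196), with 0.98 in males and 1.01 in females. In controls it went from 7.12 and 7.49 to 7.73 and 8.20 (0.66, SE 0.10, adjusted p = 0.0676).

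*Gprc5a*, a receptor first described as induced by retinoic acid, was higher in *Pparg-cKO* ureters in all pools, with 10.22 and 9.79 in control against 11.63 and 11.69 in *Pparg-cKO* pools with DMSO. The difference was 3.16-fold with DMSO (log2 difference 1.66, SE 0.15, adjusted p = 0.00436) and 4.06-fold with purmorphamine (2.02, SE 0.15, adjusted p = 0.00394). *Retsat*, which saturates retinol and is a known PPARG target in fat cells, gave 12.65 and 12.73 in control against 11.83 and 12.15 in *Pparg-cKO* pools with DMSO (-0.70, SE 0.15, adjusted p = 0.0575), with -0.82 in males and -0.58 in females. *Rdh12*, a retinaldehyde reductase, gave 10.91 and 10.61 against 9.92 and 10.51 (-0.55, SE 0.21, adjusted p = 0.279), with -0.99 in males and -0.098 in females. With purmorphamine *Rdh12* gave 10.82 and 10.69 in control against 9.72 and 9.95 in *Pparg-cKO* pools, lower in both sexes but not called.

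**Figure D4:**
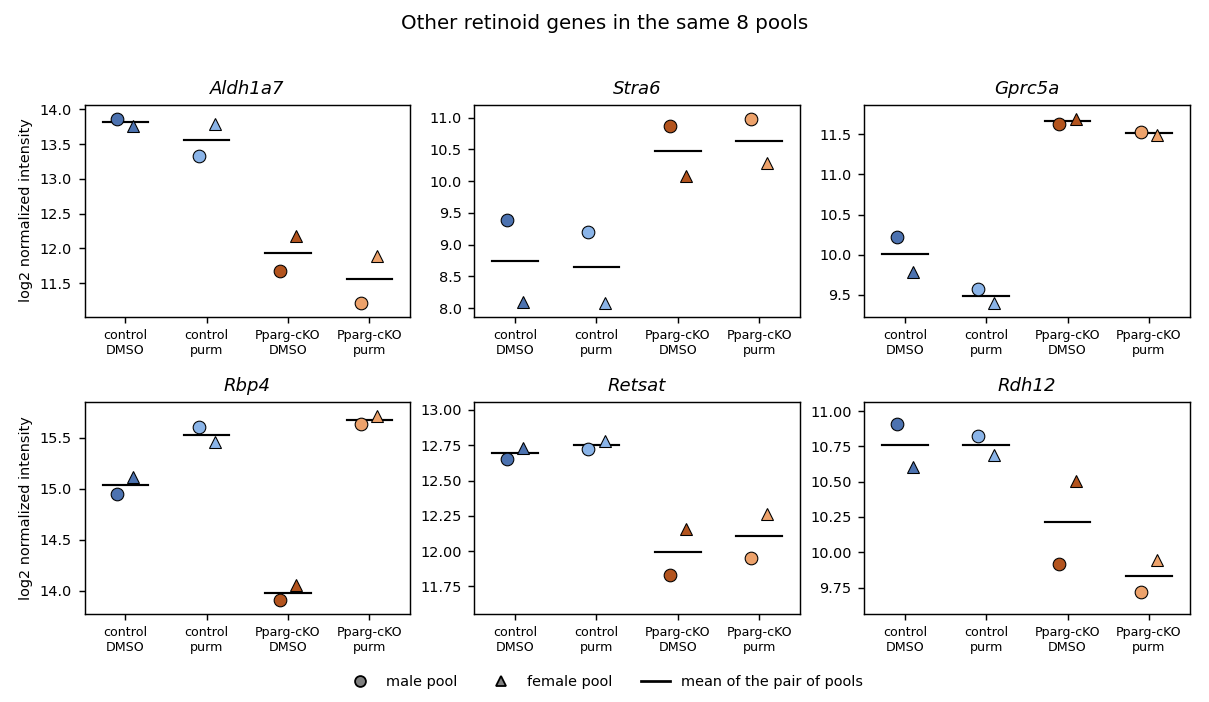
Log2 normalized intensity (y axis, a separate scale for each panel) of the 6 retinoid list genes with the largest genotype difference with DMSO, in the 4 combinations of genotype and treatment (x axis), with circles for male pools, triangles for female pools and lines for their mean. The Pparg-cKO pools lie below the control pools in Aldh1a7 and above them in Gprc5a under both treatments; in Rbp4 they lie below them with DMSO (13.91 and 14.05) and just above them with purmorphamine (15.64 and 15.72).

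The genes whose levels followed the called members most closely were sought among 18645 genes that were well above background in all 8 channels, by Pearson's r over the 8 normalized levels. The nearest were *Jade1* (r = 0.971) and *Pigl* (r = 0.969) for *Aldh1a1*, *H2-Q10* (r = 0.992) and *Lif* (r = 0.990) for *Aldh1a3*, and *Nudt5* (r = 0.970) and *Xrcc2* (r = 0.956) for *Crabp1*. With 8 levels that share arrays and pools, these are descriptions of likeness without a test.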

How the data were processed

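RNA of 8 ureter pools was measured on 4 two-colour Agilent arrays. Per the file headers, the deposited intensity values are scanner output of Agilent Feature Extraction (12.2.0.7, whereas the submitters' processing notes name 10.7.3.1), and their log10 ratio column is red over green and served only to check direction. The deposited value table of the series holds signed fold scores of purmorphamine over DMSO, made by the authors from scaled and floored signals. Here mean intensities were background-corrected (normexp, offset 50), loess-normalized within arrays, averaged over the spots of a probe (4 in the median) and brought to a common scale (Aquantile). Genotypes were compared by a separate-channel fit (intraspot correlation 0.0400) and treatments by log ratios turned to purmorphamine over DMSO, with limma 3.58.1 in R 4.3.3, across the 27066 probes that both pools of at least 1 group showed well above background. The brightest probe stood for a gene, and Benjamini-Hochberg adjustment covered all probes. The functions were tested on simulated data. The pools are the replicates (2 per group), no saturated spot was found, and the precision is limited by the number of arrays. Coordinates of probes are mm9, and promoters come from RefSeq (GRCm38.p6).

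The rule of the methods used processed signals with the 75th percentile set to 1500 and a floor of 15. The members and gene lists were chosen with earlier results of these data known. From the retinoid list the text names the 6 genes with the largest genotype difference with DMSO, since fewer than 6 were called, and *Lrat*, chosen after its values were seen. Alternatives were processed signals, median centring, other filters, the mean over probes, no scaling between arrays, the value table of the series, leaving out each array, and the replicate number as a block.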

Additional observations from a re-analysis of the deposited data

Results flagged for a closer look

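*Crabp1* and *Cyp26b1* moved in opposite directions between the genotypes in males and in females, with either treatment. For *Crabp1* the *Pparg-cKO* level was lower in males (mean of both treatments -1.29) and higher in females (0.25), so that the male and the female difference lay -1.55 apart. For *Cyp26b1* they were -0.46 in males and 0.036 in females, -0.50 apart. These differences between the sexes were not tested, since each rests on 1 pool per sex, genotype and treatment, and sex cannot be told apart from dye orientation.

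The dimmer *Rarb* probe moved down with purmorphamine in both control arrays (mean -0.23) and up in both *Pparg-cKO* arrays (mean 0.23). The responses differed by 0.45, which was not called (adjusted p = 1.00 in limma). The brighter *Rarb* probe did not show opposite signs in all 4 arrays.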

How the results depend on the processing

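With 2 pools a group, each call rests on few values. Over the 8 members and 5 comparisons there were 448 recomputed values, of which 414 kept their direction and side of the threshold, 13 lost a call, 2 gained one and 19 changed sign, none of these from a called value. Many could not change direction, since the other filters and the replicate block left the fitted differences as they were. Leaving out an array of 1 genotype also left the response of the other genotype as it was. Only a reported call could be lost, and most results were not called. By limma, in no alternative was a member called between the genotypes with DMSO or in the difference of the responses. Over all genes the calls ranged from 32 to 1016 between genotypes with DMSO (746 as reported), from 17 to 896 with purmorphamine (585), from 0 to 606 for purmorphamine in controls (243), from 0 to 1087 in *Pparg-cKO* ureters (942) and from 0 to 39 for the difference (0). With purmorphamine in control ureters the count of 1 member became 0 with processed signals, median centring, no filter on dim probes, the replicate block and the value table of the series, and 0 to 1 when an array was left out. In *Pparg-cKO* ureters the count of 1 became 0 without the filter and with the value table, 2 with the replicate block (*Aldh1a1*, adjusted p = 0.0432, joined *Crabp1*), and 0 to 1 when an array was left out. Between genotypes with purmorphamine it was 0 to 2 when an array was left out. The replicate block (sex and dye, not animals) put *Aldh1a3* in control ureters at an adjusted p of 0.0649. Across genes, the replicate differences of the 2 genotypes had r = -0.15 with DMSO and 0.47 with purmorphamine. The numbers mark sex and dye and were not taken as pairs, although with purmorphamine the 2 genotypes shared part of this deviation.

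By the rule of the methods the count with DMSO went from 0 to 2 with either sex alone. With purmorphamine between genotypes it went from 2 to 1 at a threshold of 2-fold. For purmorphamine in control ureters it went from 2 to 0 at 2-fold and was 2 to 3 with 1 sex alone (*Aldh1a2* joined in females), and in *Pparg-cKO* ureters from 1 to 0 at 2-fold, 2 without the intensity limit and 2 to 3 with 1 sex alone.

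Signs changed for small differences. With median centring *Dhrs3* in control ureters was 0.0035 and the *Cyp26b1* difference of responses -0.072, and without scaling between arrays *Dhrs3* between genotypes with purmorphamine was -0.078. When an array was left out, the range between genotypes with DMSO was -0.91 to 0.51 for *Crabp1* and -0.27 to 0.079 for *Dhrs3*. With purmorphamine it was -0.39 to 0.021 for *Cyp26b1*, -1.59 to -0.086 for *Crabp1*, -0.29 to 0.18 for *Aldh1a3*, -0.00075 to 0.28 for *Dhrs3* and -0.45 to 0.0082 for *Crabp2*. For purmorphamine in controls it was -0.14 to 0.17 for *Aldh1a1*, -0.54 to 0.028 for *Rarb* and -0.35 to 0.27 for *Dhrs3*, and in *Pparg-cKO* ureters -0.026 to 0.27 for *Rarb*. For the difference of responses it was -0.027 to 0.13 for *Cyp26b1*, -0.0027 to 0.41 for *Aldh1a2*, -0.079 to 0.55 for *Dhrs3* and -0.27 to 0.099 for *Crabp2*. The cause was not tested. A lone array of a group was assumed to vary like the others.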
